A study of Ambystoma mexicanum with 7 samples.

Results

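The probes for miR-193 and miR-365 were followed between the regenerating blastema and the stump of axolotl hindlimbs on 2 microarray platforms. A probe was a member if a vertebrate name on it was miR-193, miR-193a, miR-193a-3p, miR-193a-5p, miR-193b or miR-365, which gave 6 of 2021 named Exiqon probes and 17 of 1974 LC Sciences miRNA reporters. All 6 names were on each array, among 980 vertebrate miRNA names on Exiqon and 1393 on LC Sciences. The blastema group held mid-bud blastemas collected at 17 days post-amputation (dpa) from 3 white axolotls, and the stump group held hindlimb tissue of the same 3 animals (368, 369 and 378) taken at amputation, with full-thickness skin, bone, muscle and nerve, so that the groups differ in the time of collection and in the tissues they hold. Exiqon hybridized each sample in Hy3 to its own array against a pool of all samples in Hy5, and LC Sciences hybridized the blastema and stump of 1 animal together on each of 3 arrays. On these 3 arrays the blastema carried Cy3 in animal 368 and Cy5 in the other animals.

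A miRNA hairpin is cut into a strand from each arm, and the bases near the 5′ end, the seed, pair with the messenger RNAs that it represses. In mammals the hairpins of miR-193 and miR-365 lie next to each other, and miR-193b and miR-365 are known from mouse brown fat, where they are abundant. In human cancer cells miR-193b represses cyclin D1 and the protease urokinase, and in chicken cartilage cells miR-365 represses the histone deacetylase HDAC4. The strands named miR-193a-3p and miR-193a-5p come from opposite arms of the same hairpin, and miR-193b* is the opposite strand of miR-193b.

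The LC Sciences file for the array of animal 368 gives the sequence that each reporter is meant to detect. The 17 reporters had 9 different targets, which are shown 5′ to 3′ with the seed (bases 2 to 8) in capitals, together with the partner strand miR-193b*.
hsa-miR-193b: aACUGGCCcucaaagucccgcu
C_mmu-miR-193b: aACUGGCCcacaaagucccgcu
gga-miR-193b: aACUGGCCcacaaagucccgcuuu
dre-miR-193b: aACUGGCCcgcaaagucccgcu
xtr-miR-193: aACUGGCCcgcaaagucccgcuuc
hsa-miR-193a-3p: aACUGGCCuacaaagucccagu
mdo-miR-193: aACUGGCCuacaaagucccag
hsa-miR-193a-5p: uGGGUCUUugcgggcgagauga
hsa-miR-193b*: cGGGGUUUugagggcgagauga
hsa-miR-365: uAAUGCCCcuaaaaauccuuau

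The species prefixes stand for human (hsa), mouse (mmu), chicken (gga), zebrafish (dre), frog (xtr) and opossum (mdo), and C_ is a prefix of the file. The seed ACUGGCC was shared by 10 reporters, all of them members, and AAUGCCC by the 6 miR-365 reporters, which had 1 target in common. No reporter outside the family carried either seed. Counted from 1 at the 5′ end of the human miR-193b target, the mouse and chicken forms differed from it by U10A and the zebrafish and frog forms by U10G, with 2 more bases at the 3′ end in chicken and frog. The target of hsa-miR-193a-3p differed from human miR-193b by C9U, U10A, G20A and C21G, and it was also the target of dre-miR-193a and gga-miR-193a. The opossum target, on mdo-miR-193 and C_mdo-miR-193, was the same sequence without its last base. No axolotl sequence of these miRNAs was used here, and the Exiqon files give names but no target sequences.

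The Exiqon log ratio is log2 of Hy3 over Hy5, here after loess normalization, and a probe was called where limma gave a Benjamini-Hochberg adjusted p under 0.05 over all 2008 probes above the filter on dim signals. All 6 member probes were above this filter. The 3 miR-193b probes, the miR-193a-5p probe and the miR-365 probe read higher in the blastema after loess, a direction that turned for miR-365 under median centring, and the miR-193a-3p probe read lower. Thus 5 of 6 member probes were called higher, where 9.16% of all probes were. Another 1 of 6 was called lower, where 11.2% of all probes were. The filter removed few probes. Among the 972 probes over the highest negative control in all samples of a group, 228 were called higher and 230 lower. The calls of the 6 members there were again 5 higher and 1 lower. The probes were chosen by name, but the family itself was picked on the blastema and stump differences of these same arrays, so that these shares are a description. The median difference of the 6 probes was 0.57, against -0.000543 over all probes.

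The Exiqon probe for human and macaque miR-193b had log ratios of 0.48, 0.17 and 0.27 in the blastemas of animals 368, 369 and 378, against -0.41, -0.54 and -0.44 in their stumps. The groups did not overlap. The difference was 0.77 ± 0.12 (SE, 3 samples a group), or 1.70-fold. The Hy3 signal of this probe was 345 to 448 in the blastemas and 237 to 395 in the stumps, where the highest negative control read 116 to 128.

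The probe shared by zebrafish miR-193b and frog miR-193 gave 0.24, -0.01 and 0.06 in the blastemas and -0.37, -0.59 and -0.27 in the stumps. Its groups did not overlap either, and the difference was 0.51 ± 0.13, which was not called with any animal left out (0.46 to 0.60). The probe shared by mouse and chicken miR-193b gave 0.21, -0.00021 and -0.11 in the blastemas and -0.44, -0.41 and -0.28 in the stumps, a difference of 0.41 ± 0.12. This was the dimmest of the 6 probes, with Hy3 signals of 150 to 159 in the blastemas and 131 to 157 in the stumps, and it rested on 2 spots in the stump of animal 369. It was not called with the animal as a block, or with any animal left out.

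The miR-193a-5p probe had the largest difference of the 6 after loess. Its log ratios were 1.01, 0.63 and 0.62 in the blastemas against -0.29, -0.29 and -0.34 in the stumps, which differed by 1.06 ± 0.13, or 2.09-fold, without overlap. The probe named for the opposite arm of that hairpin differed in the other direction on the same arrays. The miR-193a-3p probe, which carried 9 species names, had log ratios of -0.67, -0.82 and -0.74 in the blastemas against -0.09, -0.12 and 0.45 in the stumps. The blastemas were all below the stumps, with a difference of -0.82 ± 0.16, or 1.77-fold lower. Its Hy3 signal alone separated the groups, at 273, 313 and 388 in the blastemas and 763, 506 and 845 in the stumps. The Hy3 signal of the miR-193a-5p probe also did so, at 421 to 478 in the blastemas and 273 to 370 in the stumps. The share of all probes apart by Hy3 alone was not counted.

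The miR-365 probe, with 12 species names, gave 0.45, 0.16 and 0.47 in the blastemas and -0.26, -0.50 and -0.05 in the stumps. The difference was 0.63 ± 0.15 without overlap. It was not called without animal 368 (0.59) or without animal 378 (0.68). The Hy3 signals behind it did overlap, at 773, 825 and 1115 in the blastemas against 1188, 640 and 1093 in the stumps. At this probe the reference pool in Hy5 read 1525, 1442 and 1435 on the blastema arrays and 1410, 1221 and 1110 on the stump arrays. The pool was the same on every array, but it also read differently between the groups. This held for all 6 member probes, and the Hy5 shift over all probes was not counted. Before normalization their log2 Hy5 was higher on the blastema arrays by 0.16 (miR-193a-5p) to 0.32 (human miR-193b), and by 0.25 for miR-365. Without normalization the human miR-193b difference was 0.16 ± 0.20 and was not called. A higher Hy5 signal lowers the log ratio. In Hy3 alone after quantile normalization, miR-365 differed by 0.75 ± 0.14 and human miR-193b by 0.83 ± 0.12, and both were called. In this setting 5 members were called higher and 1 lower, where 184 and 186 of 2008 probes were.

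**Figure D1:**
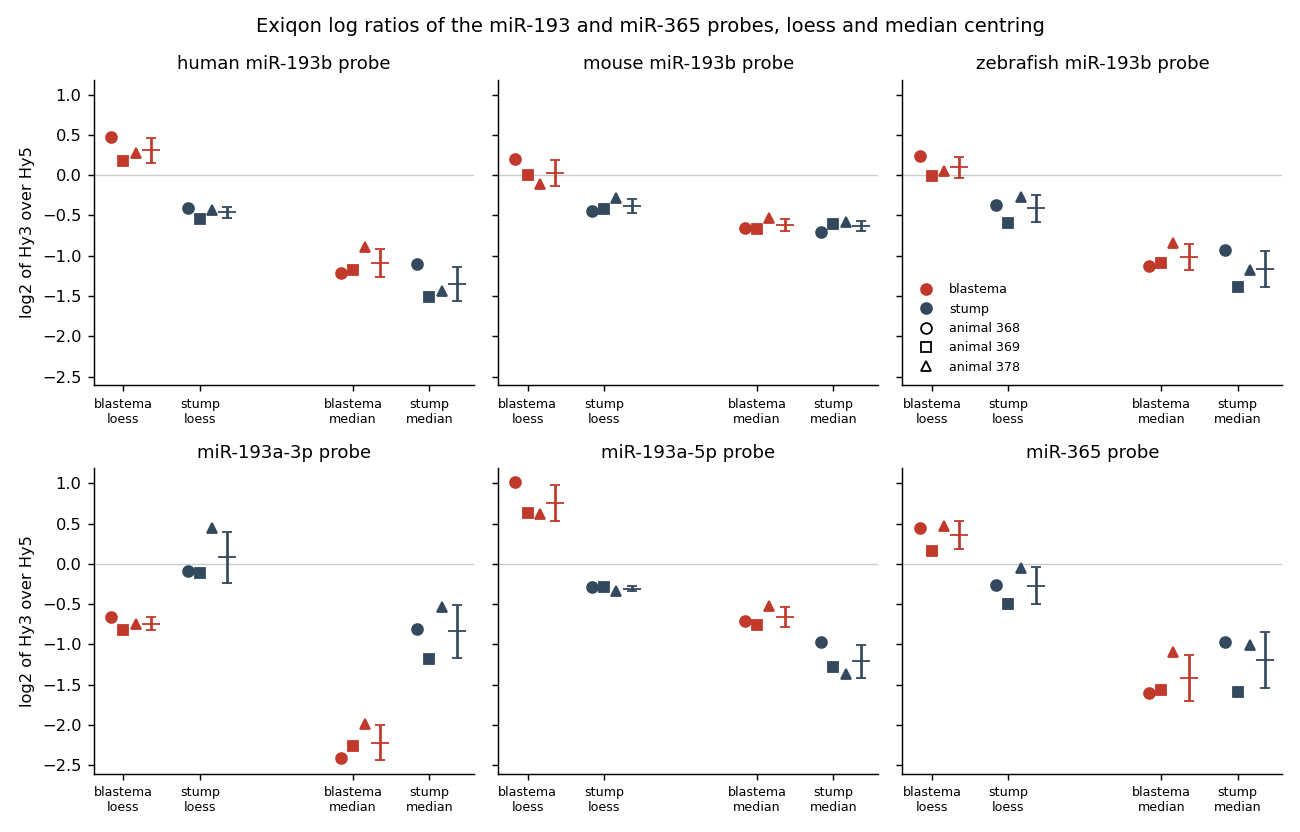
Log2 of Hy3 over Hy5 of the 6 Exiqon member probes in each sample, after loess (left in each panel) and after median centring (right). Red marks are blastemas and dark marks stumps, shapes give the animal, and bars show the mean and SD of 3 samples. Under loess all 6 pairs of groups are apart, and under median centring only miR-193a-3p and miR-193a-5p are.

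Loess removes a trend of the log ratio with brightness, whereas median centring shifts each array by 1 value. Under median centring only the miR-193a-5p probe was called higher (0.55 ± 0.15), where 2.74% of all probes were, and only the miR-193a-3p probe was called lower (-1.38 ± 0.19), where 13.1% were. The human miR-193b probe then had a difference of 0.26 ± 0.16, with -1.22, -1.17 and -0.89 in the blastemas and -1.10, -1.51 and -1.44 in the stumps. Its groups overlapped, through the stump of animal 368. The zebrafish and mouse miR-193b probes differed by 0.14 ± 0.16 and 0.01 ± 0.12, within their errors. The miR-365 probe turned in sign, to -0.23 ± 0.20, with -1.60, -1.56 and -1.09 in the blastemas and -0.97, -1.59 and -1.01 in the stumps.

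The groups of 2 of the 6 probes stayed apart under median centring, those of miR-193a-5p and miR-193a-3p. Over all probes, the blastemas lay above the stumps without overlap for 16.5% of probes under loess and 11.7% under median centring, and below them for 19.1% and 20.4%. The median of all probes was 0.02 under median centring, against -0.000543 under loess.

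With the loess curve fitted to the 10 spike-in control probes alone, no member was called higher and miR-193a-3p was called lower by 1.84 on the log2 scale. Against this curve 1.79% of all probes were called higher and 13.4% lower. The miR-193b probes then differed by -0.000724 to 0.06, the miR-193a-5p probe by 0.31 ± 0.19 and the miR-365 probe by -0.49 ± 0.28. The spike-in probes read synthetic RNAs added to the samples. They differed between blastema and stump by -0.08 to 1.48 after the loess on all probes and by at most 0.31 after median centring. After this loess the dimmest spike-in probe (mean log2 Hy3 6.78) had the lowest difference and the brightest (11.93) the highest. Spike-in probes at 8.20 and 8.70 differed by 0.57 and 0.86. The cause of these differences was not tested. The miR-193a-3p probe was the member whose direction and call were the same under loess, median centring, spike-in loess and no normalization.

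**Figure D2:**
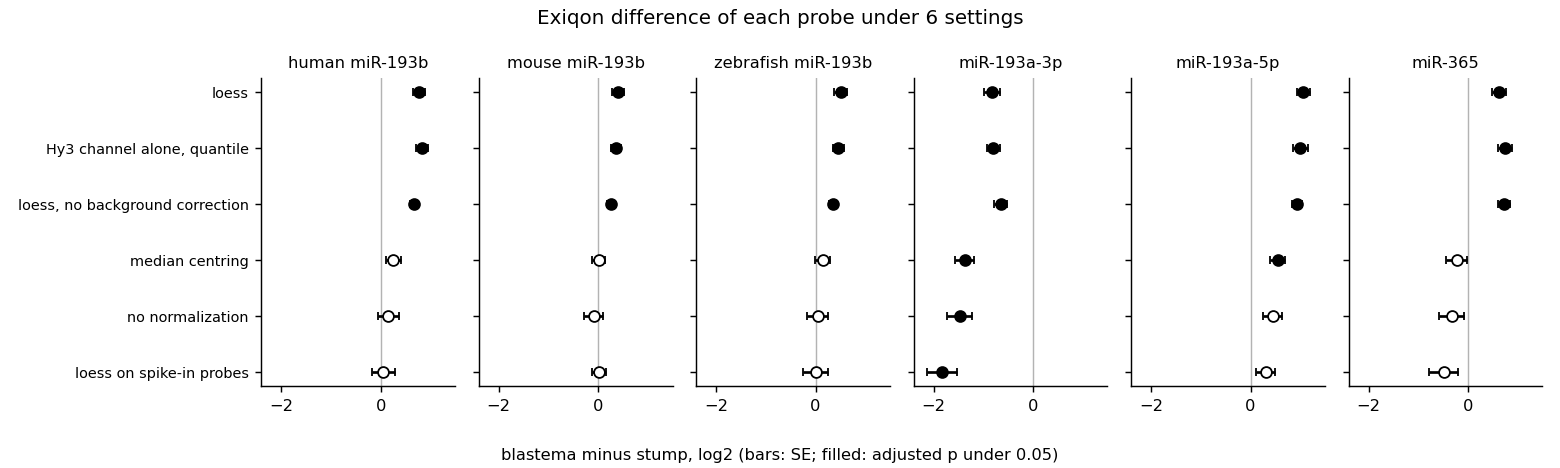
Difference between blastema and stump (log2) of each Exiqon member probe under 6 settings. Bars are SE, and filled circles mark probes called at an adjusted p under 0.05. The miR-193a-3p probe lies left of 0 in all 6, the miR-193a-5p probe right of 0, and the miR-365 probe changes side between the upper 3 and the lower 3.

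On LC Sciences the values are signals normalized by the company, with values under 32 set to 32 before log2. Of 17 member reporters 13 were above the filter, which asked for at least 32 in all 3 samples of a group, and these 13 held 6 different targets. In all, 7 of 13 were called higher, where 25.8% of the 500 reporters tested were called higher. No member was called lower, where 22.4% of reporters were. By the methods' t-test after Benjamini-Hochberg 7 were higher and 0 lower, where 90 and 87 of the 500 reporters were. At its unadjusted p of 0.01, 7 were higher and 0 lower, where 71 and 72 reporters were. The 7 were the 4 reporters with the A or G forms of miR-193b and the 3 reporters of the full miR-193a-3p target. The 3 miR-193a reporters passed the filter through the blastemas only, so that their higher blastema signal is no support for a difference.

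The chicken miR-193b reporter read 2125, 942 and 1048 in the blastemas of animals 368, 369 and 378, against 192, 123 and 186 in the stumps. The blastemas were above the stumps in every animal, and most in animal 368. The difference was 2.97 ± 0.37 on the log2 scale, or 7.82-fold, with 11.1-, 7.66- and 5.63-fold in the 3 animals. The mouse form without the last bases (C_mmu-miR-193b) read 2018, 908 and 898 in the blastemas and 166, 127 and 168 in the stumps.

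The zebrafish miR-193b reporter read 2246, 890 and 948 in the blastemas and 201, 103 and 172 in the stumps. The frog miR-193 reporter read 2627, 1446 and 1065 in the blastemas and 200, 213 and 186 in the stumps. The lowest blastema of each of these 4 reporters was above its highest stump, as was so for 30.0% of all reporters tested, and the reverse held for 31.8%. Their differences lay between 2.95 and 3.02. They ranked 17 to 20 of 500 from the highest difference.

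The human miR-193b reporter, whose target differs from the mouse one at a single base, was not above the filter. It read 11, 14 and 1 in the blastemas and 18, 18 and 1 in the stumps, all under 32, and no fold is given. On Exiqon the human probe was clearly over the negative controls in both groups. The platforms use different capture chemistries, and levels of different probes are not compared here.

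**Figure D3:**
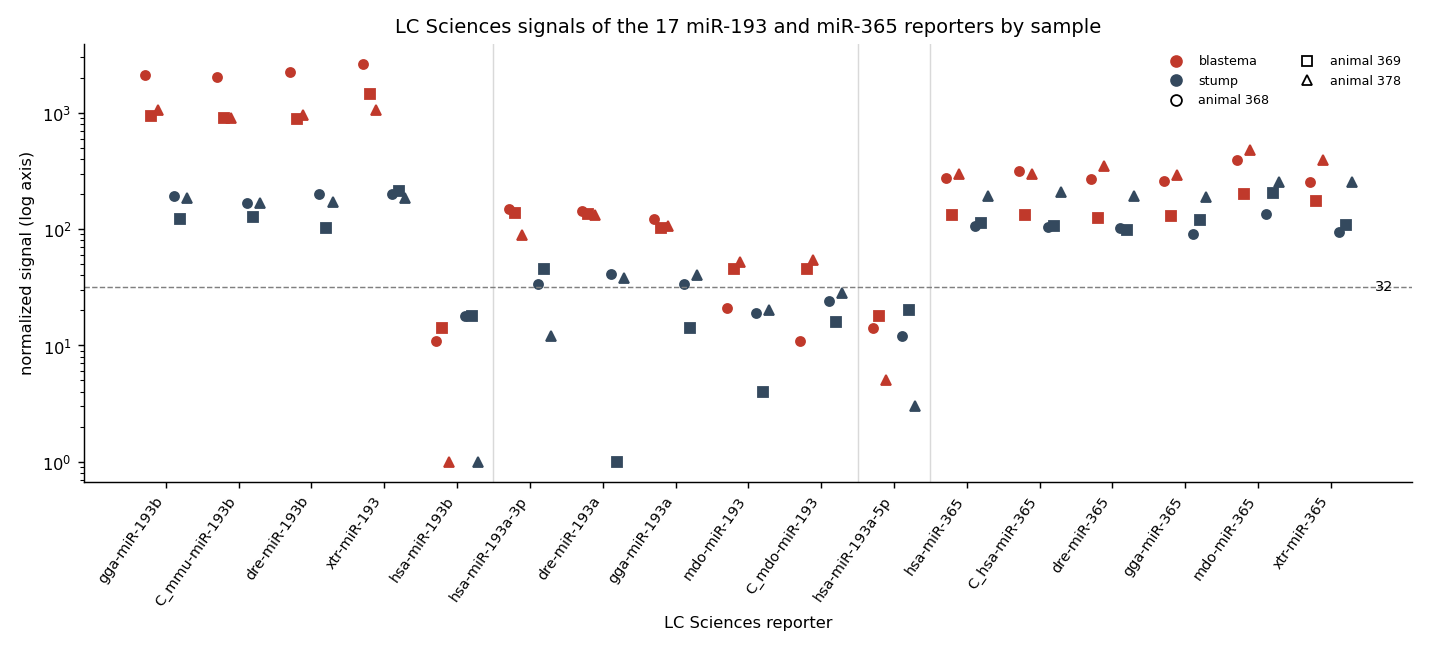
Normalized signal (log axis) of the 17 LC Sciences reporters in each sample. Red marks are blastemas, dark marks stumps, shapes give the animal, the dashed line is the floor of 32 and the vertical lines part miR-193b, miR-193a-3p, miR-193a-5p and miR-365. The 4 reporters at the left read 890 to 2627 in the blastemas and 103 to 213 in the stumps, while hsa-miR-193b and hsa-miR-193a-5p lie under 32 in all samples.

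The human miR-193a-3p reporter read 149, 137 and 89 in the blastemas and 34, 45 and 12 in the stumps. The groups were apart, with a difference of 1.74 ± 0.28, or 3.34-fold, after the lowest stump was set to 32. The zebrafish and chicken reporters of the same target gave 144, 135 and 131, and 121, 102 and 106, in the blastemas, and 41, 1 and 38, and 34, 14 and 40, in the stumps. Their differences were 1.89 ± 0.20 and 1.64 ± 0.21. The 3 stump groups each had 1 sample under 32, so that these reporters passed the filter through the blastemas only. Their separation is thus no support for a difference. The size of the differences also depended on the floor: with a floor of 1 the zebrafish reporter differed by 3.56 and was not called. Without a filter on dim reporters, the human miR-193a-3p and the zebrafish miR-193b reporters were not called.

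The values of miR-193a-3p on the platforms stand side by side here, and the difference between them was not tested. The LC Sciences values turned in sign with scaling to the spike-in reporters, to -0.69 ± 0.63 for the human reporter. This was not called, its groups overlapped, and in animal 378 both scaled signals were under 32. For the Exiqon probe the differences within animals 368, 369 and 378 were -0.57, -0.71 and -1.19, and for the human LC Sciences reporter they were 2.13, 1.61 and 1.48, the last with a stump signal of 12 set to 32. The opossum reporters, which lack the last base, read 21, 45 and 52 (mdo-miR-193) and 11, 45 and 54 (C_mdo-miR-193) in the blastemas. In the stumps they read 19, 4 and 20, and 24, 16 and 28, all under 32, and they were not above the filter.

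The 5′ arms were near the lower end of the LC Sciences scale. The miR-193a-5p reporter read 14, 18 and 5 in the blastemas and 12, 20 and 3 in the stumps, so that the Exiqon difference of this strand had no counterpart that could be measured. The miR-193b* reporter, not a member, read 30, 35 and 35 in the blastemas and 19, 24 and 1 in the stumps, and it was not above the filter because 1 blastema was under 32. No Exiqon probe outside the members carried a miR-193 or miR-365 name.

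The 6 miR-365 reporters were not called on LC Sciences. The human reporter read 276, 132 and 296 in the blastemas and 106, 113 and 192 in the stumps. The blastema was above the stump of its own animal in each case, but the groups overlapped, since the blastema of animal 369 was below the stump of animal 378. The difference was 0.74 ± 0.39. The opossum reporter, the farthest from it in signal, read 390, 200 and 482 in the blastemas and 134, 203 and 252 in the stumps, a difference of 0.82 ± 0.40, and in animal 369 its blastema was slightly below its stump.

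Over the 6 reporters of this target the difference ran from 0.74 to 0.91, and without animal 368 from 0.37 to 0.65. With the animal as a block the frog reporter was called, at 0.91, and the other 5 were not, where 24.6% of all reporters were called higher. With a dye term all 6 were called at 0.90 to 1.03, where 28.0% of all reporters were called higher. The blastema was in Cy3 in animal 368 alone, so this fit weighted that animal as much as the other animals together. The departure of animal 368 from the others then fell to the dye term and not to the error. Animal 368 differed most, by 1.38 to 1.61, whereas animal 369 differed by -0.02 to 0.68 and animal 378 by 0.50 to 0.94. The dye cannot be told apart from animal 368.

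**Figure D4:**
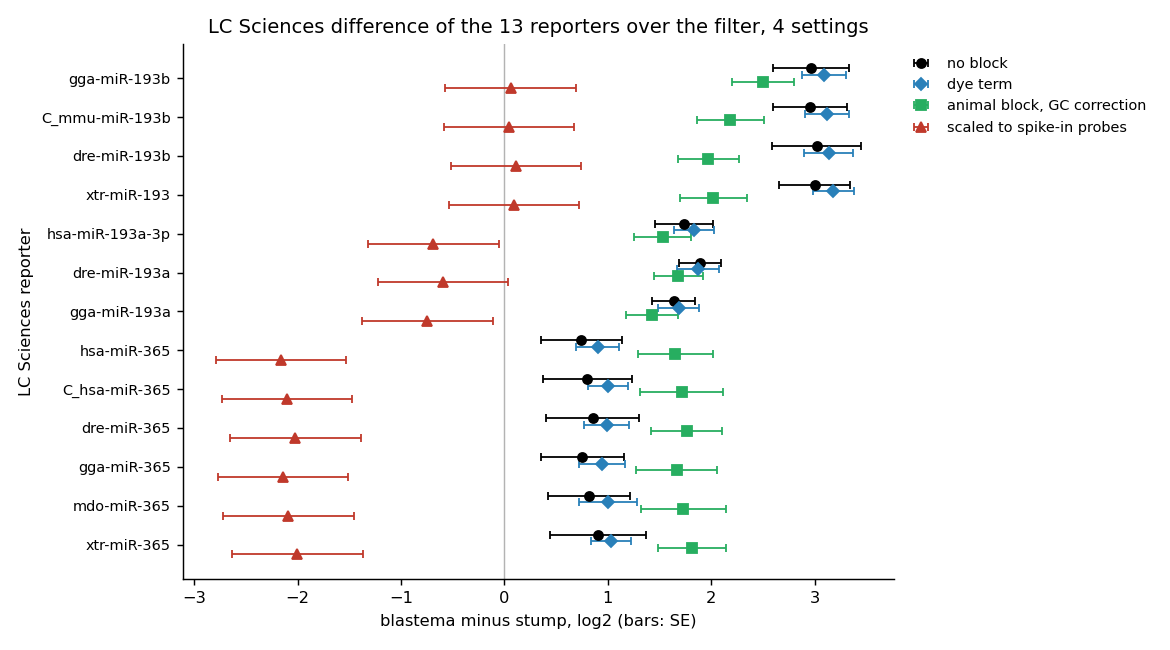
Difference between blastema and stump (log2) of the 13 LC Sciences reporters above the filter under 4 settings, with SE bars. Without a block the miR-193b forms lie near 3, miR-193a between 1.64 and 1.89 and miR-365 between 0.74 and 0.91, and scaling to the spike-in probes moves all 13 to the left.

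Between the sets of reporters, the base composition of the targets moved with these values. Within the miR-193b forms it ran from 54.2% G and C (chicken) to 63.6% (zebrafish), with like differences of 2.97 and 3.02. The miR-365 target was 31.8% G and C, a share that 4.4% of reporters tested had or fell below, and the zebrafish miR-193b target was 63.6%, which 3.8% reached. Across all reporters the difference rose with this content by 0.70, 0.58 and 0.57 for each 10 percentage points in animals 368, 369 and 378. With this slope taken out and the animal as a block, all 13 reporters were called higher, as were 24.0% of all reporters. Among the 13 were the miR-193a reporters that passed the filter through the blastemas only. The slope was fitted over all reporters tested, muscle names included. Taking it out can thus also remove or add differences between the tissues. The miR-193b forms then differed by 1.97 to 2.50, miR-193a by 1.43 to 1.68 and miR-365 by 1.65 to 1.82. Their SE were 0.24 to 0.41, and differences between the sets were not tested.

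The 4 spike-in reporters of LC Sciences read 7.50-fold higher in the blastema after the company's normalization, by 5.56-, 10.01- and 7.60-fold in the 3 animals. With each sample scaled to them, the median over all 500 reporters moved to -2.70, 0.400% of reporters were called higher and 84.6% lower. None of the 13 member reporters was then called higher, the 6 miR-365 reporters were called lower at -2.16 to -2.002, and the miR-193b forms differed by 0.05 to 0.11. Relative to the median over all reporters the miR-193b forms were higher by 2.75 to 2.81 and miR-365 by 0.54 to 0.70, and the 4 miR-193b forms again ranked 17 to 20 of 500.

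Spot values before normalization were read for animal 368, where the blastema was in Cy3 and the stump in Cy5. The mean of the chicken miR-193b spots was 1888 for the blastema and 331 for the stump, where empty spots read 289 and 45.7. After subtraction of the empty spots this was 5.61-fold. The miR-365 reporters were 1.55- to 2.11-fold higher in the blastema by the same measure, and the spike-in reporters read 0.880-fold. Relative to the spike-in reporters, chicken miR-193b was 6.37-fold higher in the blastema and miR-365 1.76- to 2.40-fold. After the company's normalization and scaling to the spike-in reporters, chicken miR-193b was 1.99-fold and miR-365 0.47- to 0.55-fold in this animal. The cause of this change was not tested. The human miR-193b spots read 323 for the blastema and 45.2 for the stump, close to the empty spots in both channels. Since only 1 array was read before normalization, the ratios from its spots have no replicate check.

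**Figure D5:**
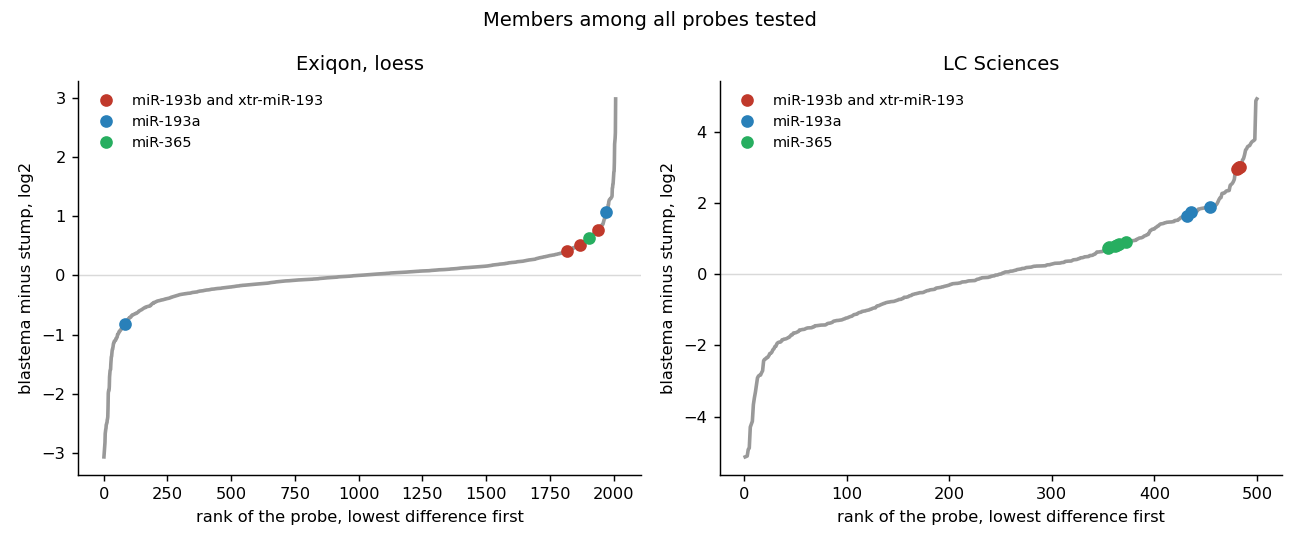
Differences between blastema and stump (log2) of all probes tested, ordered from the lowest, with the members marked, on Exiqon after loess (2008 probes) and on LC Sciences (500 reporters). The miR-193a-3p probe is at rank 85 from the lowest on Exiqon, and the 4 miR-193b forms are at ranks 17 to 20 from the highest on LC Sciences.

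The names most like miR-193b over the 6 samples were sought on each platform, as a description, since the samples fall into 2 groups and any probe with the same split scores high. On Exiqon mmu-miR-501-3p (Pearson r = 0.995), mmu-miR-705 (0.991) and the nematode probe cbr-miR-72 (0.989) were closest to the human miR-193b probe among 2002 probes. On LC Sciences hsa-miR-638 (0.9998), xtr-miR-31 (0.987) and gga-miR-205b (0.984) were closest to the chicken miR-193b reporter. The frog miR-31 reporter read 2051, 1172 and 852 in the blastemas and 86, 83 and 111 in the stumps, so it also had its highest blastema in animal 368. The miR-638 reporter was much dimmer, with 112, 81 and 84 in the blastemas and 45, 38 and 44 in the stumps, and its target was 80.0% G and C. No name was among the closest on both platforms. Only these few names were kept, against probes of different species, so the lack of a shared name is no result.

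As miR-193b and miR-365 are known from fat, 14 other miRNAs that act on fat cell formation or thermogenic fat in mouse were read through the brightest probe of each name. On Exiqon after loess 9 of 14 were lower in the blastema, 1 was higher and 4 were not called by limma. Of all probes 11.2% were lower and 9.16% higher. Among the 972 probes over the highest negative control in all samples of a group, 230 were lower and 228 higher. Under median centring 10 were lower and 0 higher, where 13.1% of all probes were lower and 2.74% higher. Among the lower ones were miR-26a (difference -1.37 ± 0.16, adjusted p = 0.000389) and miR-455 (-1.25 ± 0.17, adjusted p = 0.000836), and the higher one was miR-155 (0.40 ± 0.12, adjusted p = 0.0384), a repressor of brown fat formation that was not called under median centring. On LC Sciences 12 of 14 were tested, of which 3 were lower (miR-26a, miR-27a and miR-455) and miR-155 was higher (1.26 ± 0.26, adjusted p = 0.00776), where 22.4% of all reporters were lower and 25.8% higher. With scaling to the spike-in reporters all 12 were called lower, miR-155 included, as were 84.6% of all reporters. The list was short and chosen with results known, and it holds muscle and cartilage names: miR-133a was lower by 2.60 ± 0.57 on Exiqon (adjusted p = 0.0102).

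The tissue labels were read against names that mark limb tissues. All 5 muscle names, both epidermal names and the endothelial miR-126 reached 32 in all 3 samples of each group on LC Sciences, as did 2 of 3 blood cell names. Of the 2 cartilage names, 0 did so in the blastemas and 1 did in the stumps, whereas on Exiqon each of these names was over the negative controls in all samples of both groups. These counts give presence and not amount. The human LC Sciences reporters of the 5 muscle names differed by -5.11 to -1.35 between blastema and stump, although those of miR-133a and miR-133b were not called. The samples are whole tissue, so fewer cells of a type and less RNA per cell cannot be told apart in any of the values above, and the part of tissue make-up in the differences of miR-193 and miR-365 was not tested.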

How the data were processed

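Blastema and stump RNA of 3 axolotls was profiled on 6 Exiqon and 3 LC Sciences arrays. Exiqon scanner files were deposited as intensity for each spot and channel, before any normalization. The authors' log2 ratios, deposited after normexp and loess, were used as an alternative. The deposited LC Sciences values are intensity normalized by the company on a linear scale, and its single deposited value per probe is a log2 ratio of group means with the stump on top, turned here. Column medians of the deposited ratios lay between -0.14 and -0.03 on Exiqon, and LC Sciences had -0.11. The method behind the company's normalization is not settled by the sources used here. Deposited tables of the authors' fold changes and p-values were not used.

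Exiqon spots were corrected by normexp (offset 10) and normalized by loess (limma 3.58.1, R 4.3.3) with a weight of 0 for control spots. Flagged spots were dropped, and up to 4 spots were averaged. Over the values present in both, these log ratios had a Pearson r of 0.9995 with the deposited ones. A probe was kept where 50% of its spots exceeded their background by 2 SD on all 3 arrays of a group. Another 206 IDs had no name and were not used. Arrays of animal 368 had 1584 (blastema) and 1209 (stump) poor spots, against 186 to 214 on the others, and no spot was saturated. On LC Sciences 12 control reporters were left out, and 489 to 576 of 1974 reporters per sample reached 32.

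Blastema and stump were compared by limma (lmFit, eBayes), unpaired as in the methods, with Benjamini-Hochberg adjustment over all probes kept and a threshold of 0.05. Both samples of an animal share its number, so the animal as a block was an alternative. After centring within groups, blastema and stump of the same animal correlated at -0.03 to -0.01 on Exiqon and at -0.05 to 0.17 on LC Sciences. Other alternatives covered the background correction, normalization, channel, filters, floor, dye, G and C content, each animal left out and the methods' t-test. The fit was also run on simulated data with known differences and independent normal errors. Such data do not bear on the effects of normalization, dye or animal. Every member probe was to be named, with values for those above the filter. The members and lists were chosen with earlier results of these data known. The number of arrays limits the precision.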

Additional observations from a re-analysis of the deposited data

How the results depend on the processing

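On Exiqon the 5 members called higher became 1 under median centring, 0 with loess on the spike-in probes and 0 without normalization. Of all 2008 probes 55, 36 and 20 were called higher in these settings. With an animal left out 2, 3 and 2 were called higher and 1 lower each time. Of all 2008 probes 177, 105 and 82 were called higher in these fits, and 202, 150 and 106 lower. The human miR-193b, miR-193a-5p and miR-193a-3p probes were called each time. The zebrafish and mouse miR-193b probes were never called, and miR-365 was called only without animal 369. By the methods' t-test 2 were higher (human miR-193b and miR-193a-5p) and 0 lower after Benjamini-Hochberg, where 155 and 158 of 2002 probes were. At an unadjusted p of 0.001, 0 were higher and 0 lower, where 51 and 36 of these probes were. The miR-365 probe reversed to -0.23 under median centring, -0.49 with loess on spike-in probes and -0.33 without normalization. The zebrafish miR-193b probe reached -0.000724 with loess on spike-in probes and the mouse probe -0.088 without normalization. On LC Sciences the 7 called higher became 4 where 32 was asked of all 6 samples, which leaves the miR-193a reporters out, 5 without a filter, where zebrafish miR-193b and human miR-193a-3p lost their calls among 1974 reporters, and 13 with the dye term. Over all reporters 114 of 441, 43 of 1974 and 140 of 500 were called higher in these settings. Scaling to the spike-in reporters gave 0 higher and 6 lower, where 2 and 423 of 500 reporters were. It reversed the human, C_hsa, zebrafish, chicken, opossum and frog miR-365 reporters to -2.16, -2.10, -2.02, -2.14, -2.09 and -2.002, and the human, zebrafish and chicken miR-193a reporters to -0.69, -0.59 and -0.75. The reversed miR-193a reporters were not called, and the cause of the reversals was not tested. With an animal left out 7 were higher and 0 lower each time. Of all 500 reporters 100, 62 and 110 were called higher in these fits, and 95, 43 and 82 lower. The 7 include the miR-193a reporters that passed the filter through the blastemas only.

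With the animal as a block 4 Exiqon members were called higher and 1 lower, where 149 and 187 of 2008 probes were. On LC Sciences 8 members were then higher and 0 lower, where 123 and 108 of 500 reporters were. The block took the call of the mouse miR-193b probe, gave a call to the frog miR-365 reporter and changed no other call. The block with the G and C correction gave 13 higher, where 120 of 500 reporters were. Both the 8 and the 13 include the miR-193a reporters that passed the filter through the blastemas only. The calls of those reporters are no support for a difference. The deposited log ratios held 5 of the 6 Exiqon members, of which 4 were higher and 1 lower. Of all 380 probes with 6 deposited values, 140 were higher and 151 lower.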
